A study of Mus musculus with 7 samples.

Results

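The genes described here encode the proteins of the cytosolic and of the mitochondrial ribosome. They were chosen by gene symbol alone: symbols beginning with Rpl or Rps and a number (pseudogene symbols with -ps and the Rps6k kinases left out), Rplp0 to Rplp2, Rpsa, and symbols beginning with Mrpl or Mrps and a number. This gave 162 genes of 23235 symbols: 86 named for the cytosolic ribosome (34 for its small and 52 for its large subunit) and 76 named for the mitochondrial ribosome (29 small and 47 large). The family was picked out because its values differed between libraries. Its values by genotype and by library prefix are therefore given as descriptions, with no test over the family. Where calls of single members are counted, they come from a fit over all genes and are descriptions too.

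RNA was sequenced from 7 cultured fetal mouse kidneys of strain C57BL/6, 3 of them E2-2 deleted and 4 E2-2 wildtype, and in all 7 beta-catenin was activated as well, so no library has beta-catenin at its normal state. Pregnant mice had received tamoxifen (2 mg per 40 g of body weight) at 10.5 days post coitum, and kidneys were taken at 10.5 days post coitum and kept for 3 to 4 days in culture. The labels name neither the Cre driver nor the days in culture of each library, and they do not say whether libraries came from separate animals, so an SD or SE here is the scatter of these libraries, part or all of which could be technical. The deposited names of 4 libraries begin with BI (E2-2 deleted replicates 1 and 2, E2-2 wildtype replicates 1 and 2) and those of 3 with BM (E2-2 wildtype replicates 3 and 4, E2-2 deleted replicate 3). What the prefix stands for is not given in the sources used here.

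A ribosome is built from ribosomal RNA and many small proteins in a small subunit, which reads the message, and a large subunit, which joins the amino acids. Cells make cytosolic ribosomal proteins from very abundant, short messages whose first bases are an unbroken run of pyrimidines (the terminal oligopyrimidine or TOP motif), which lets mTOR signalling through Larp1 set their translation as a group. Mitochondrial ribosomal proteins are encoded in the nucleus too, are imported, and serve the translation of the few proteins of the mitochondrial genome. Genes of cytosolic ribosomal proteins have left many processed pseudogenes, near-identical copies without introns, across mammalian genomes, and a short sequencing fragment can match gene and copy alike.

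The start regions of a few members show the pyrimidine runs. RefSeq promoter sequences (assembly GRCm38.p6) were found by symbol for 64 cytosolic and 67 mitochondrial members. Each stretch below is 30 bases, 5′ to 3′ on the gene's strand, around the longest unbroken run of C and T within 50 bases before to 50 after the annotated start, and the run is in capitals. The first set is the 4 cytosolic members with the largest difference between library prefixes.
Rpl12, chr2:32961732-32961761, plus strand: ggaggaggcaacggtgcaaCTTTCTTCggt
Rps12, chr10:23787182-23787211, minus strand: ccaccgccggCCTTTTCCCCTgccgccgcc
Rps27, chr3:90213632-90213661, minus strand: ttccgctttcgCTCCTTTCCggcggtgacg
Rpl36a, chrX:134585672-134585701, plus strand: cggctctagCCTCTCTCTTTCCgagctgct
The second set is 4 cytosolic members of highest level among those with a sequence.
Rpl41, chr10:128549119-128549148, minus strand: cgccattaaatagcagtaggCCTCCCTCTC
Rps9, chr7:3704024-3704053, plus strand: caaccgccttgTCTCTCTTTgtctcgggcc
Rpl4, chr9:64173405-64173434, plus strand: gagcgtggCCTTCTCCTCTCCCCgtcatgg
Rps21, chr2:180257399-180257428, plus strand: ggaggcacgagctaCTTCCTTTCTgcgctc
The third set is the 3 mitochondrial members of highest level with a sequence.
Mrpl52, chr14:54426857-54426886, plus strand: gtcggcttccggTTTTCCCggcagcgtccc
Mrps21, chr3:95871510-95871539, minus strand: ctgcagcgtagCTTCCTCCCgtcgcgggac
Mrpl20, chr4:155802884-155802913, plus strand: gtgctcttaaCCCTCTCTCCagccccaatt

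A run of at least 8 pyrimidines lay on the gene's strand in 59 of 76 start regions of cytosolic members (77.6%), in 26 of 73 of mitochondrial members (35.6%) and in 35.7% of all 32851 start regions of the table. On the other strand the shares were 23.7%, 24.7% and 38.1%. In the stretches printed above, runs began between base -40 (Mrpl52) and base 41 (Rpl41) relative to the annotated start. The run of Rpl41 ends with the window, so its full length is not known. Annotated starts can lie some bases from the true one, so a run in this window describes the letters and is not a mapped TOP motif. Among the cytosolic members tested, the median level was 186 FPKM over 51 genes with a run and 204 FPKM over 10 without.

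The inferred depth was 14.6 to 21.4 mega-fragments in the BI and 23.1 to 26.6 in the BM libraries, so depth did not overlap between prefixes. Its part in the prefix differences below was not tested. Levels are FPKM, a count of fragments set against transcript length and against the total mapped in each library. Tcf4, which encodes E2-2, was at 33.5, 41.7 and 42.0 FPKM in E2-2 deleted replicates 1 to 3 and at 48.8, 58.1, 28.7 and 39.2 FPKM in E2-2 wildtype replicates 1 to 4. The groups overlapped; the labels do not say which part of the gene is deleted, so this level over the whole gene does not check the genotypes, which are used as labelled. Kidney markers were present in every library, but E2-2 deleted replicate 2 stood apart: its 6 nephron progenitor markers summed to 54.8 FPKM against 138 to 313 in the other 6 libraries, and its 6 erythroid markers to 9.36 against 40.6 to 437. All 4 tooth markers together were higher in the deleted libraries (22.7 to 31.1 FPKM) than in the wildtype ones (0.515 to 9.58), with Amelx under 1 FPKM everywhere. The 5 melanocyte markers did likewise (23.4 to 89.0 against 1.92 to 21.4), and of 4 skeletal muscle markers Myod1 and Ckm were under 1 FPKM everywhere. In bulk RNA fewer cells of a type and less RNA per cell cannot be told apart, and the part of these markers in the values below was not tested.

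Summed over all its members, the cytosolic ribosome was at 24437, 13162 and 34482 FPKM in E2-2 deleted replicates 1, 2 and 3 and at 24861, 17659, 45935 and 45343 FPKM in E2-2 wildtype replicates 1 to 4. The 3 BM libraries were the highest 3 whatever their genotype, and E2-2 deleted replicate 2 was the lowest. The members took 3.55% to 9.86% of the summed FPKM of all genes kept. The mitochondrial ribosome summed to 2965, 2013 and 3045 FPKM in the deleted and to 3101, 2527, 3682 and 3620 FPKM in the wildtype libraries. Here too E2-2 deleted replicate 2 was lowest, but the BM deleted library lay below a BI wildtype library.

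By genotype, the cytosolic sum was 24027 ± 10666 FPKM (SD, n = 3) in deleted and 33449 ± 14381 FPKM (SD, n = 4) in wildtype libraries, a ratio of 0.718, and the groups overlapped. Without E2-2 deleted replicate 2 the ratio was 0.881. The mitochondrial sum was 2674 ± 574 FPKM (SD, n = 3) in deleted and 3232 ± 538 FPKM (SD, n = 4) in wildtype libraries, a ratio of 0.827, or 0.930 without that library. By prefix, the cytosolic sum was 2.09 times as high in BM as in BI libraries and the mitochondrial sum 1.30 times. Taken as shares of the summed FPKM of all genes kept, these ratios were 1.83 and 1.13. The cytosolic sum over the mitochondrial sum was 7.45 ± 0.81 (SD, n = 4) in BI and 12.1 ± 0.68 (SD, n = 3) in BM libraries, with no overlap: the BI values were 8.24, 6.54, 8.02 and 6.99, and the BM values 11.3, 12.5 and 12.5.

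**Figure D1:**
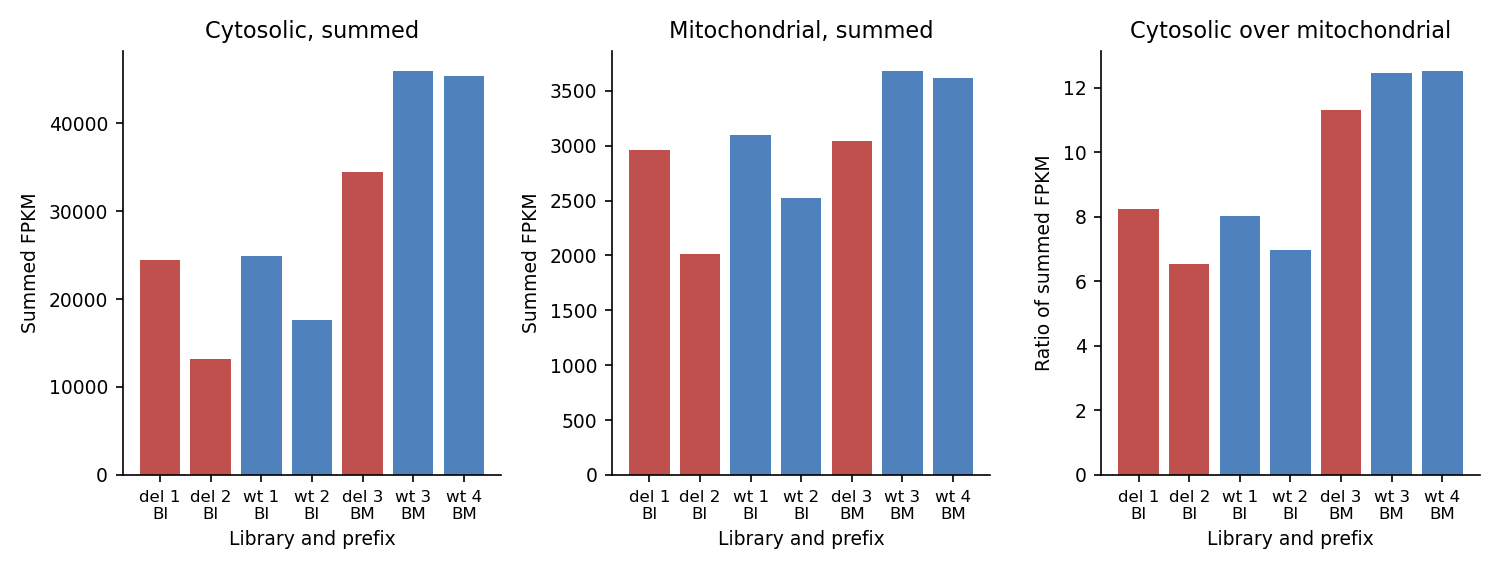
Summed FPKM of the cytosolic members (left), of the mitochondrial members (middle) and their ratio (right) in each of the 7 libraries, with E2-2 deleted libraries in red and E2-2 wildtype libraries in blue, ordered by prefix. The ratio lies between 6.54 and 8.24 in the 4 BI libraries and between 11.3 and 12.5 in the 3 BM libraries.

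Of the 86 cytosolic members, 83 reached the mean of 1 FPKM needed for the fit, as did all 76 mitochondrial members. The 3 that did not were Rpl10l, listed at 0 in every library, Rpl3l (0 to 0.196 FPKM) and Rpl39l (0 to 0.575 FPKM), which are paralogs known from testis (Rpl10l, Rpl39l) and muscle (Rpl3l). Among the 83, the median member stood at 73.5 to 152 FPKM in BI and at 279 to 374 FPKM in BM libraries. The median mitochondrial member stood at 21.9 to 33.2 FPKM in BI and at 31.6 to 36.9 FPKM in BM libraries. Cytosolic members also differed more among themselves in BI than in BM libraries: the SD of their log2(FPKM + 1) levels was 1.82 to 1.87 against 1.54 to 1.59, while that of mitochondrial members was 0.82 to 0.93 throughout. E2-2 deleted replicate 2 was the lowest of the 7 libraries for 78 of 83 cytosolic and 70 of 76 mitochondrial members. Its median deviation of log2(FPKM + 1) from each gene's mean was -1.20 over cytosolic and -0.52 over mitochondrial members. Over all genes tested this library was low too, at -0.14, against -0.01 to 0.07 in the others. The share of all genes with their lowest level there was not counted.

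**Figure D2:**
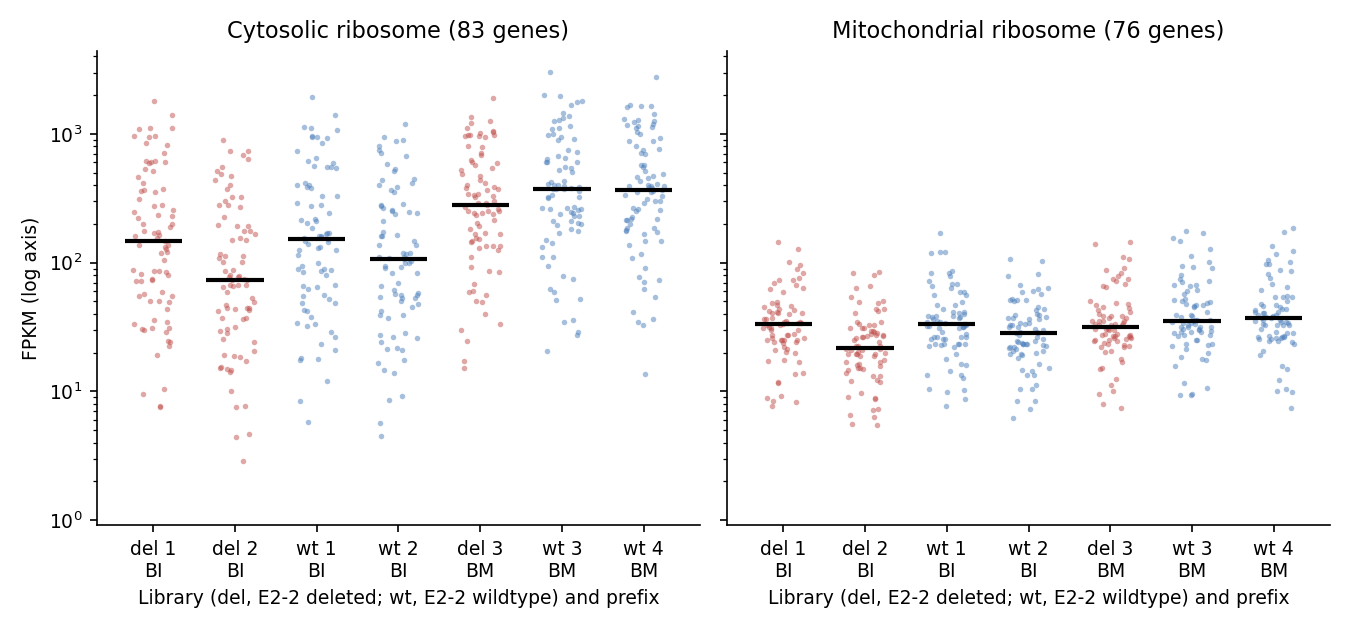
FPKM of each member tested (points, log axis) in each library for the cytosolic (left, 83 genes) and mitochondrial ribosome (right, 76 genes), with black bars at the median and E2-2 deleted libraries in red. The cytosolic medians of the 3 BM libraries (279 to 374 FPKM) lie above those of the 4 BI libraries (73.5 to 152 FPKM).

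Cytosolic members had lower mean levels in the E2-2 deleted libraries, and the groups overlapped in all but 1 of them. The difference of log2(FPKM + 1), deleted minus wildtype, was below 0 for 83 of 83 cytosolic members, with a median of -0.52, against 60.7% below 0 and a median of -0.05 over all 13465 genes tested. For the mitochondrial members it was below 0 for 75 of 76, with a median of -0.27, the exception being Mrps6. No gene of the 13465 passed limma at an adjusted p under 0.05, where 605 had an unadjusted p under 0.05. At that unadjusted level 1 cytosolic and 3 mitochondrial members were lower, against 1.2% of all genes tested, and none was higher, against 3.29%. Every deleted library lay below every wildtype library for 1 cytosolic member (Rpl34) and 4 mitochondrial members (Mrpl28, Mrps35, Mrpl3 and Mrpl19), against 2.05% of all genes, and above for none, against 2.84%. These shares are given beside the count only, since this contrast was used to pick out the family.

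The prefixes are not balanced between genotypes (1 of 3 deleted and 2 of 4 wildtype libraries are BM), and with the prefix as a term the medians were -0.28 (cytosolic) and -0.20 (mitochondrial). The size of the difference also rested on single libraries, most of all on E2-2 deleted replicate 2. Without it the cytosolic median was -0.06, with 31 of 83 members above 0, and the mitochondrial median -0.07. Leaving out E2-2 deleted replicate 3 gave a cytosolic median of -0.93. Dropping one wildtype library gave -0.82 (replicate 2), -0.29 (replicate 3) or -0.26 (replicate 4). With a weight per library (limma arrayWeights) the cytosolic median was 0.27, with 65 of 83 members above 0, and the mitochondrial median -0.08. Within the BI libraries the medians were -0.24 (cytosolic) and -0.19 (mitochondrial), and within the BM libraries, where a single library is deleted, -0.35 and -0.22. Over all genes tested the medians were -0.08 within BI and 0.01 within BM libraries. Of the 83 cytosolic members, 77 were below 0 within both prefixes, as were 71 of the 76 mitochondrial members, against 4847 of all 13465 genes tested. The genotype contrast was used to pick out the family, so nothing is read from these counts.

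**Figure D3:**
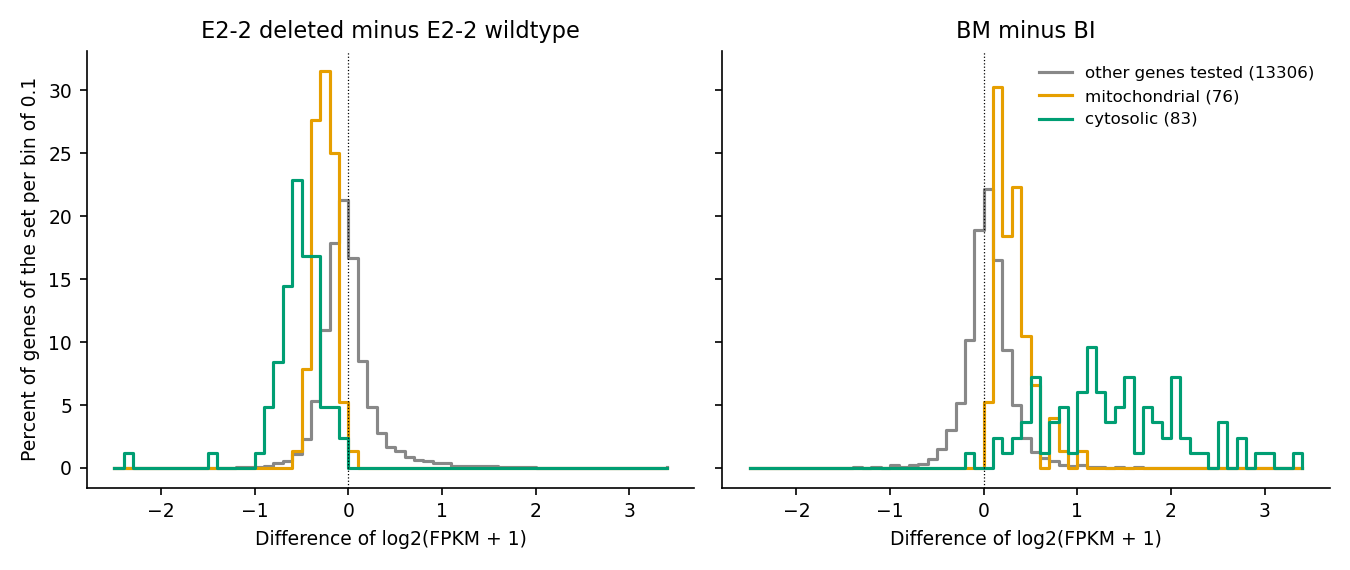
Share of genes per bin of 0.1 of the difference of log2(FPKM + 1), for E2-2 deleted minus E2-2 wildtype (left) and BM minus BI (right), in cytosolic members (green, 83), mitochondrial members (orange, 76) and the other 13306 genes tested (grey). The cytosolic median is -0.52 on the left and 1.27 on the right, where the other genes have a median of 0.04; values beyond the ends of the axis are counted in the end bins.

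Of the 34 genes named for the cytosolic small subunit, all were tested, and their median difference between genotypes was -0.49. Rps9 and Rps14 were among the highest. Rps9 stood at 1102, 732 and 1046 FPKM in deleted replicates 1 to 3 and at 1070, 888, 1785 and 1298 FPKM in wildtype replicates 1 to 4. Its deleted and wildtype libraries overlapped (difference -0.37, SE 0.32). Rps14, a protein of the platform near the end of the small ribosomal RNA, was at 823, 375 and 1036 FPKM in deleted and at 844, 516, 1959 and 1619 FPKM in wildtype libraries, and both BM wildtype libraries were above all others.

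Rps6 is the substrate of the S6 kinases downstream of mTOR. It was at 274, 151 and 390 FPKM in deleted and at 275, 210, 394 and 434 FPKM in wildtype libraries, which overlapped (-0.32, SE 0.37). Rpsa, also described as a laminin receptor, was at 234, 116 and 371 FPKM against 216, 162, 385 and 460 FPKM. In both genes all 3 BM libraries were above all 4 BI libraries.

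Rps19, a protein needed to mature the small ribosomal RNA and mutated in Diamond-Blackfan anaemia, had the most negative genotype difference of the small subunit (-1.46, SE 0.74). In the deposited tables it lies at chr7:25669733-25674821. It was at 35.9, 46.7 and 250 FPKM in deleted and at 126, 112, 380 and 352 FPKM in wildtype libraries, so that both BI deleted libraries were below all others while the BM deleted library was above both BI wildtype ones. With a weight per library its difference was -0.04. The lowest members of the subunit were Rps29 and Rps12. Rps12 (chr10:23504989-23507015) was at 7.52, 2.86 and 39.7 FPKM in deleted and at 5.78, 4.51, 51.9 and 54.0 FPKM in wildtype libraries, and its lowest value rests on 16.0 inferred fragments.

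Of the 52 genes named for the cytosolic large subunit 49 were tested, with a median genotype difference of -0.55. Rpl41, whose coding sequence is only 75 bases long and which is the highest of all members, lies at chr10:127985166-127986224 in the deposited tables. It was at 1788, 896 and 1918 FPKM in deleted and at 1927, 1193, 3010 and 2772 FPKM in wildtype libraries (-0.53, SE 0.47). Both BM wildtype libraries were highest, and the remaining libraries overlapped between genotypes. Rpl32 ranked next, at a mean of 986 ± 424 FPKM (SD, n = 3) in deleted and 1301 ± 445 FPKM (SD, n = 4) in wildtype libraries.

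The stalk proteins Rplp0, Rplp1 and Rplp2 form the arm of the large subunit that recruits elongation factors. Rplp1 was at 855, 486 and 1262 FPKM in deleted and at 923, 672, 2015 and 1689 FPKM in wildtype libraries. Rplp0, which anchors the arm, was at 603, 399 and 795 against 567, 412, 995 and 807 FPKM. Rplp2 (chr7:148633549-148637241) was far lower, at 71.5, 36.3 and 171 FPKM against 66.7, 57.0, 271 and 220 FPKM, although the stalk holds Rplp1 and Rplp2 in pairs. With an annotated copy, Rplp2-ps1, added, Rplp2 ranged from 314 to 832 FPKM over the libraries, and that copy is described further on. In Rplp0, Rplp1 and Rplp2 without the copy, the BM wildtype libraries were highest and E2-2 deleted replicate 2 lowest.

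Rpl5 and Rpl11 bind Mdm2, the ubiquitin ligase of p53, when ribosome assembly is disturbed. Rpl5 was at 136, 67.1 and 245 FPKM in deleted and at 130, 99.3, 260 and 303 FPKM in wildtype libraries (-0.45, SE 0.52). Rpl11 was at 105, 59.2 and 215 FPKM against 152, 82.9, 375 and 310 FPKM (-0.82, SE 0.60). The groups overlapped for both genes.

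Rpl34 (chr3:130429749-130433226) was the only cytosolic member whose genotypes did not overlap. It was at 24.7, 42.0 and 17.1 FPKM in deleted and at 65.2, 57.8, 264 and 387 FPKM in wildtype libraries, a difference of -2.38 (SE 0.71). The difference was -0.91 within BI and -4.14 within BM libraries. It is a gene with near-identical copies, and its values together with those of a copy are given further on. At the other end, the differences of Rpl26 (-0.01, SE 0.26), Rpl29 (-0.08, SE 0.33) and Rpl30 (-0.10, SE 0.26) were the least negative of the large subunit.

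A list of 12 symbols held near-copies of ribosomal proteins and genes that carry such a symbol without being part of the ribosome, and 7 of them were tested. Rps27l, a paralog of Rps27 known as a p53 target, was at 282, 165 and 418 FPKM in deleted and at 328, 239, 644 and 571 FPKM in wildtype libraries. Rpl36al, a retained copy of Rpl36a, was at 351, 226 and 436 against 381, 276, 429 and 519 FPKM, and Rpl22l1, the paralog of Rpl22, at 73.4, 25.6 and 134 against 80.5, 44.9, 202 and 227 FPKM. Rpl7l1 was at 55.3, 44.4 and 56.5 against 56.4, 54.3, 74.5 and 70.1 FPKM. Rps19bp1, which binds Rps19 and is no ribosomal protein, ranged from 18.4 to 35.8 FPKM, and Rps4y2 from 24.2 to 41.8 FPKM. Mrps36, now known as a subunit of the mitochondrial 2-oxoglutarate dehydrogenase complex, was at 11.5, 13.2 and 20.4 against 13.3, 14.6, 27.0 and 23.3 FPKM. In all 7 the genotype difference was below 0 (median -0.34), against 60.7% of all genes tested. By genotype none passed limma after adjustment or had an unadjusted p under 0.05. By prefix the median difference was 0.58, and all 7 were above 0, against 59.7% of all genes tested. With limma 5 were higher in BM at an unadjusted p under 0.05 (4.52% of all genes), and none passed after adjustment. These 7 belong to the family, which the genotype and the prefix helped to pick out, so nothing is read from these counts.

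Among the 29 genes named for the mitochondrial small subunit the median genotype difference was -0.25. Mrps21 was the highest, at 127, 79.8 and 144 FPKM in deleted and at 122, 102, 169 and 174 FPKM in wildtype libraries. Mrps6 (chr16:92058581-92112472), whose bacterial relative sits on the platform of the small subunit, was the steadiest: 67.5, 63.6 and 64.3 FPKM in deleted and 59.4, 60.3, 66.9 and 64.7 FPKM in wildtype libraries. It was also the only member above 0 (0.05, SE 0.09), though within BM it was at -0.03. Mrps35 did not overlap between genotypes, at 24.3, 19.0 and 25.7 FPKM in deleted and 26.7, 28.3, 28.8 and 32.9 FPKM in wildtype libraries (-0.34, SE 0.13). The most negative were Mrps30 (-0.45, SE 0.24), which structures place in the large subunit despite its name, Mrps22 (-0.42, SE 0.24) and Mrps16 (-0.37, SE 0.23).

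Among the 47 genes named for the mitochondrial large subunit the median genotype difference was -0.29. Mrpl52 (chr14:55045746-55048587) was the highest of all mitochondrial members, at 146, 84.7 and 139 FPKM in deleted and at 170, 108, 175 and 186 FPKM in wildtype libraries. Mrpl12, which also binds the mitochondrial RNA polymerase, had the most negative difference (-0.54, SE 0.26), from 83.2, 48.6 and 74.6 FPKM in deleted and 82.8, 78.2, 146 and 97.9 FPKM in wildtype libraries. Its genotypes overlapped, because E2-2 deleted replicate 1 lay above E2-2 wildtype replicates 1 and 2. Mrpl28 did not overlap, at 49.6, 32.9 and 46.7 FPKM against 55.9, 51.3, 71.3 and 54.0 FPKM (-0.43, SE 0.17). Mrpl3 did not overlap either, at 36.8, 29.0 and 35.2 against 38.4, 37.7, 46.4 and 45.4 FPKM (-0.31, SE 0.12), and Mrpl19 was at 7.36 to 8.21 FPKM in deleted and 8.45 to 9.85 FPKM in wildtype libraries.

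The larger contrast ran along the library prefix. With genotype in the model, BM minus BI was above 0 for 82 of 83 cytosolic members, with a median of 1.27, and for 76 of 76 mitochondrial members, with a median of 0.29, against 59.7% above 0 and a median of 0.04 over all genes tested. With limma 20 cytosolic members were higher in BM at an adjusted p under 0.05, against 0.319% of all genes tested (43 genes), and no mitochondrial member was, where 70 cytosolic and 15 mitochondrial members had an unadjusted p under 0.05 (4.52% of all genes). Every BM library lay above every BI library for 70 cytosolic and 22 mitochondrial members, against 7.17% of all genes. The prefix was part of how the family was picked out, so nothing is read from these shares. Leaving out either wildtype BI library, either wildtype BM library or the BM deleted library took the count of cytosolic members called to 0, while the cytosolic median stayed between 1.17 and 1.48 over the 7 libraries left out in turn. With FPKM rescaled to one sum per library, the median of all genes moved from 0.04 to -0.13, the cytosolic median to 1.07 and the mitochondrial one to 0.10, where 53 of 76 mitochondrial members were above 0.

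The largest prefix differences were those of Rpl12, Rps12 and Rps27. Rpl12 (chr2:32817232-32819565), a protein of the stalk base, was at 30.1, 7.51, 17.7 and 13.9 FPKM in the BI libraries and at 129, 258 and 172 FPKM in the BM libraries, a fold of 10.8 and a difference of 3.40 (SE 0.44). Rps12 followed, with a mean of 5.17 ± 1.97 FPKM (SD, n = 4) in BI and 48.5 ± 7.73 FPKM (SD, n = 3) in BM libraries (3.02, SE 0.27). Rps27 was at 7.65, 4.68, 8.40 and 5.72 FPKM in BI and at 50.2, 28.8 and 146 FPKM in BM libraries. Rpl38, known for its part in the translation of Hox messages, was at 74.3, 43.0, 87.9 and 53.4 FPKM in BI and at 324, 508 and 491 FPKM in BM libraries (2.71, SE 0.25). In all 4 genes the prefixes did not overlap.

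Other cytosolic members had smaller differences. Rpl29 was at 520, 278, 554 and 356 FPKM in BI and at 403, 262 and 549 FPKM in BM libraries (-0.10, SE 0.35). Rpl8, a protein of the core of the large subunit, was at 1106, 743, 1118 and 945 FPKM in BI and at 960, 1372 and 1250 FPKM in BM libraries, which overlapped (0.24, SE 0.23). Rps3, which lies where the message enters, was at 598, 325, 594 and 441 against 541, 945 and 694 FPKM (0.51, SE 0.27). The 95% interval of the difference ran from -0.30 to 0.78 for Rpl8 and from -0.13 to 1.16 for Rps3, so neither shows an equal level.

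A property that the choice of members did not use is how many near-identical copies a gene has. Copies were counted as other annotated genes or pseudogenes (GENCODE M21) that match at least 80% of the coding sequence at 90% identity or more. Of 82 cytosolic members matched, 62 (75.6%) had 5 or more copies, the most being 77 for Rpl21. The 4 with none include Rpl8, Rps3 and Rps19bp1. Of the mitochondrial members 1 of 76 had 5 or more (Mrps36, with 8) and 55 had none, and of the other genes tested 1.32% had 5 or more.

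The prefix difference was larger in members with copies. Among cytosolic members its median was 0.38 over the 4 with no copy, 1.14 over 16 with 1 to 4, 1.32 over 25 with 5 to 9 and 1.50 over 37 with 10 or more. The 4 with no copy include Rps19bp1 (0.20), the lowest of them and no ribosomal protein, so their median rests on very few genes. Among mitochondrial members the median was 0.21 over 55 with none and 0.42 over 20 with 1 to 4, and Mrps36 was at 0.75. Among other genes the medians were 0.03, 0.18, 0.35 and 0.23 over the same 4 classes. Across genes, which are not independent and share the same 7 libraries, Spearman's rho between copies and prefix difference was 0.29 over 82 cytosolic and 0.60 over 76 mitochondrial members. With coding length it was -0.28 and -0.37, and with the mean level over all libraries -0.43 and 0.20, so that among cytosolic members the level had the rho farthest from 0. Rpl29 with 63 copies (-0.10) and Rpl26 with 12 (0.48) did not follow this order. Genes with copies also had shorter coding sequences: by coding length, the cytosolic medians were 1.50 over 40 genes of up to 450 bases, 1.25 over 39 genes up to 900 bases and 0.81 over 3 longer ones. Whether copies, length or level accounts for the prefix difference was not tested.

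**Figure D4:**
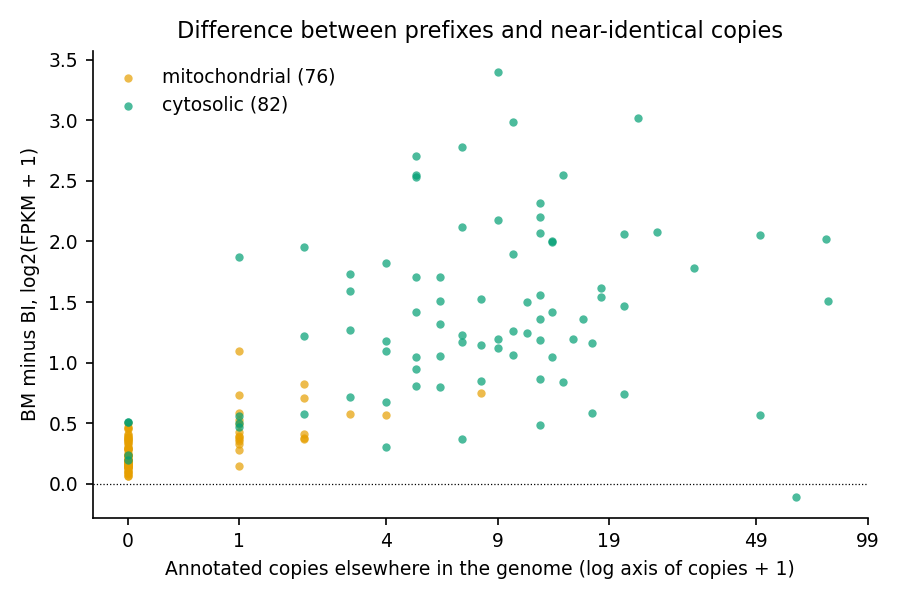
Difference of log2(FPKM + 1), BM minus BI, against the number of annotated near-identical copies (log axis of copies + 1) for 82 cytosolic (green) and 76 mitochondrial (orange) members. Members with no copy lie between 0.07 and 0.51, while members with 10 or more reach from -0.10 (Rpl29) to 3.02 (Rps12).

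For 3 members the tables hold an annotated copy under its own symbol, which the choice by symbol left out; these 3 were chosen after their values were seen. Rpl34-ps1 was at 104 FPKM in E2-2 deleted replicate 3, where Rpl34 was at 17.1 FPKM, at 32.5 FPKM in E2-2 wildtype replicate 3 and at 5.74 FPKM in E2-2 wildtype replicate 1, and under 0.01 FPKM in the other 4 libraries. Added together, Rpl34 and Rpl34-ps1 were at 24.7, 42.0 and 121 FPKM in deleted and at 71.0, 57.8, 297 and 387 FPKM in wildtype libraries. On this sum the genotypes overlapped, and the difference was -1.53 instead of -2.38.

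Rps19-ps3 was at 22.3, 10.5 and 129 FPKM in deleted and at 22.4, 16.5, 159 and 153 FPKM in wildtype libraries. It followed Rps19 by prefix, and adding the 2 entries gave a genotype difference of -1.30 instead of -1.46. Rplp2-ps1 was at 437, 278 and 340 FPKM in deleted and at 446, 369, 561 and 437 FPKM in wildtype libraries, above Rplp2 itself in all 7, and its estimate carries a low-data status in every table. Rplp2 with Rplp2-ps1 was 1.51 times as high in BM as in BI libraries, where Rplp2 alone was 3.81 times as high. For the other 2 genes adding the copy raised the fold of BM over BI, from 4.70 to 5.49 for Rpl34 and from 4.09 to 4.84 for Rps19. Whether fragments were assigned differently between gene and copy was not tested.

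**Figure D5:**
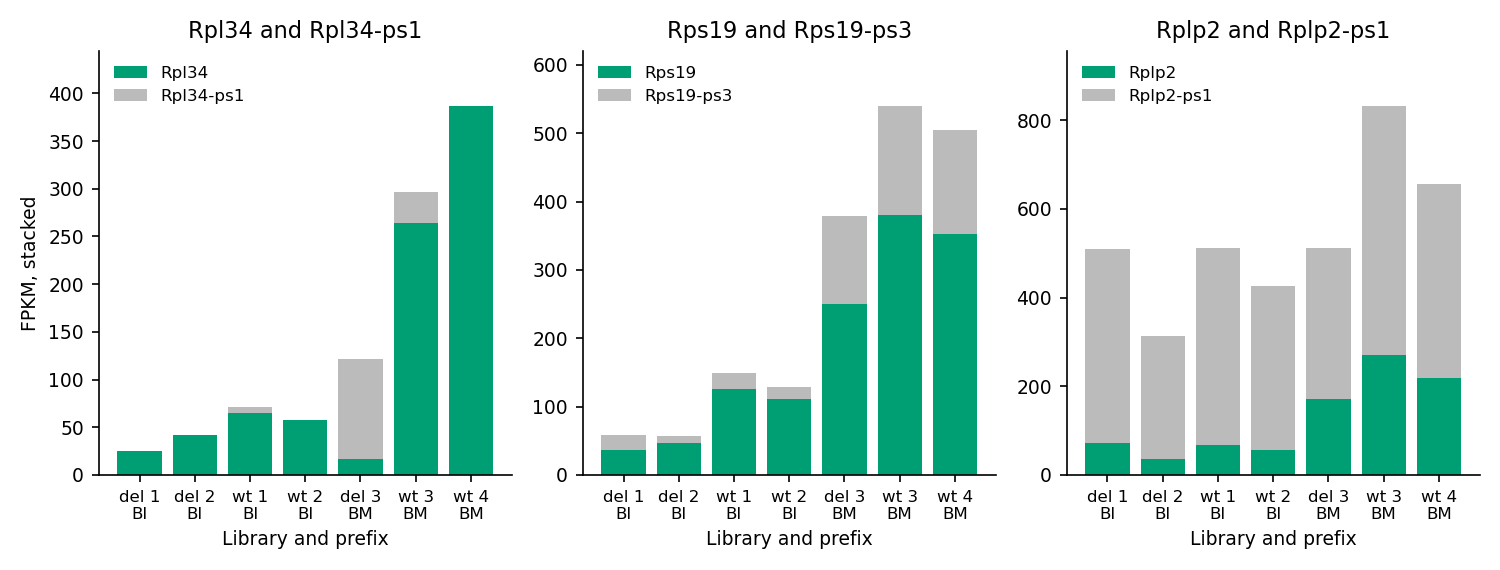
FPKM of Rpl34, Rps19 and Rplp2 (green) with that of Rpl34-ps1, Rps19-ps3 and Rplp2-ps1 stacked on top (grey) in each library, ordered by prefix. In E2-2 deleted replicate 3 most of the Rpl34 bar is Rpl34-ps1 (104 of 121 FPKM), and Rplp2-ps1 is the larger part of the Rplp2 bar in all 7 libraries.

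Further genes of ribosome function were read from lists chosen with earlier results of these data known. Nothing is therefore read from their counts. Of the ribosomal proteins with other symbols, cytosolic and mitochondrial together, all 10 tested were below 0 by genotype (median -0.32), against 60.7% of all genes tested. All 10 were above 0 by prefix (median 0.33), against 59.7%. None of them passed limma by genotype after adjustment or had an unadjusted p under 0.05. Fau, the ubiquitin-like fusion that yields a small-subunit protein, was at 96.0, 53.7 and 228 FPKM in deleted libraries. In wildtype libraries it was at 97.2, 68.0, 305 and 285 FPKM. Fau was the only one of the 10 higher in BM after adjustment (adjusted p = 0.0379, limma), against 0.319% of all genes tested. Gnb2l1, the scaffold Rack1, which has no annotated copy, was at 1109, 630 and 1008 against 1065, 855, 1450 and 1253 FPKM (prefix difference 0.41). The 2 of smallest p by genotype were the mitochondrial proteins Dap3 (-0.24, SE 0.12) and Ict1 (-0.34, SE 0.20).

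The translation factors and other TOP messages, all 14 tested, were below 0 by genotype (median -0.23), against 60.7% of all genes tested. By prefix all 14 were above 0 (median 0.54), against 59.7%. Of these, Eef1g, a subunit of elongation factor 1, and Impdh2, of guanine nucleotide synthesis, were higher in BM after adjustment, at prefix differences of 1.14 and 1.42, against 0.319% of all genes tested. Like every gene called by prefix, Fau, Eef1g and Impdh2 were no longer called when any of 5 libraries was left out (E2-2 deleted replicate 3 or a wildtype library). Impdh2 was at 16.7, 11.0, 14.5 and 12.0 FPKM in BI and at 33.2, 42.0 and 39.2 FPKM in BM libraries. The 2 of smallest p by genotype, Eef1b2 (-0.34, SE 0.25) and Eef1d (-0.25, SE 0.19), overlapped between genotypes.

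Of 42 ribosome biogenesis genes 41 were tested. By genotype 40 were below 0 (median -0.22), against 60.7% of all genes tested, and in 2 every deleted library lay below every wildtype one, against 2.05%. By prefix the median was 0.13, with none past adjustment. Bop1 (-0.30, SE 0.14) and Surf6 (-0.23, SE 0.11), both needed to mature the large subunit, had the smallest p. Mitochondrial translation and assembly factors (26 tested) had a median of -0.10 by genotype and 0.15 by prefix, with Tsfm (-0.35, SE 0.19), an elongation factor, at the smallest p by genotype. By prefix 22 were above 0 and 4 below, against 59.7% above 0 over all genes tested. Lars2 had the largest prefix difference of the list, in the other direction (-2.33, SE 0.33), and did not pass after adjustment (adjusted p = 0.0626, limma). It was at 533, 894, 340 and 602 FPKM in BI and at 84.3, 131 and 115 FPKM in BM libraries. Growth control genes (18 tested), among them Myc, mTOR and its partners, were split evenly by genotype, 9 above and 9 below 0 (median -0.02). Over all genes tested 60.7% were below 0. The median of these growth control genes by prefix was 0.02. Within that list Mycn, which drives ribosome genes in progenitor cells, was at 23.9, 4.83 and 14.0 FPKM in deleted and at 21.7, 14.5, 23.6 and 26.4 FPKM in wildtype libraries (-0.77, SE 0.45), and Eif4ebp1, an mTOR target that holds back translation, differed by -0.38 (SE 0.21). No gene of these 6 lists passed limma by genotype after adjustment, and none had an unadjusted p under 0.05.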

How the data were processed

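The authors deposited one FPKM table per library, per the file headers, with an interval and a status for each estimate. Per the submitters' processing notes the tools were Cufflinks 2.0.2, TopHat2 2.0.4 and CASAVA 1.8.2. Neither their roles nor the build is given in the sources used here, and the annotation likewise. Coordinates of genes are as deposited, counted from 1; those of start regions are RefSeq's.

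Rows of one symbol were summed. In E2-2 deleted replicate 2, 25 symbols had become dates and were restored by locus. Symbols with a status other than OK in any library, and small RNAs, were left out (22361 of 23235 kept), and 13465 whose mean reached 1 FPKM were fitted with limma 3.58.1 in R 4.3.3 on log2(FPKM + 1), as a 2-sided test with p-values adjusted by Benjamini-Hochberg across the whole table and a threshold of 0.05. The pseudocount of 1 shrinks differences of low genes. The prefix was compared in a model with genotype. Depth was inferred from the width of the deposited intervals. The fit was tested on simulated data. Copies were searched with blastn 2.17.0.

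The members and lists were chosen with earlier results of these data known. Genes named are, per subunit, the 3 highest and 2 lowest levels and the 3 most positive and 3 most negative genotype differences; the paralog list; 8 fixed genes; up to 3 members per ribosome without overlap; and 2 per partner list. Of these, 2 genes are not reported here. Others named (Rpl38, Rps27, Rpl8, Rps3, Fau, Gnb2l1, Eef1g, Impdh2, Lars2, and the 3 -ps entries) were chosen after their values were seen. Alternatives were other pseudocounts, filters, scalings, the prefix as a term, weights per library and leaving out each library.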

Additional observations from a re-analysis of the deposited data

Results flagged for a closer look

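In 2 members the lowest of the 4 wildtype libraries lay apart from the other 3, with a gap that took 0.864 of the group's range for Mrpl33 and 0.835 for Mrpl52. Both lowest values are in E2-2 wildtype replicate 2, at 63.3 FPKM for Mrpl33 against 116 to 127 FPKM in the other wildtype libraries, and at 108 FPKM for Mrpl52 against 170 to 186 FPKM. Of 58 groups examined 2 were picked out, and chance alone picks out about 1 in 20 groups.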

How the results depend on the processing

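No paired analysis was run. Replicate numbers follow the order of deposit, so an equal number in both genotypes marks no pair, and the labels name no pairs. The prefix, which occurs in both genotypes, was used as a term instead. The genotype comparison called 0 genes, 1 with no filter and 1 with a weight per library; 605 genes had an unadjusted p under 0.05, 394 at a minimum mean of 5 FPKM, 1000 with no filter, 1142 with weights and 231 to 1473 on leaving out one library. The prefix comparison called 43 genes, 1 with no filter and 0 to 123 on leaving out one library; cytosolic members called were 20, 0 and 0 to 41. At an unadjusted p under 0.05 it had 695 genes, 1089 with rescaled FPKM and 305 to 2055 on leaving out one library. Over the cytosolic members with at most 4 copies (20 genes, an alternative chosen after seeing the data) the prefix median was 0.70 instead of 1.27. The cause of these changes was not tested.

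Leaving out one library took the cytosolic genotype median from -0.93 (without E2-2 deleted replicate 3) to -0.06 and the mitochondrial one from -0.35 to -0.07. With the prefix as a term they were -0.28 and -0.20, with rescaled FPKM -0.43 and -0.18, with quantile normalization -0.37 and -0.19. Of 55 members named and tested, 27 changed sign with weights and 16 without E2-2 deleted replicate 2. Depth limits the lowest members: Rps12 rests on 16.0 inferred fragments in its lowest library.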
